A study of Arabidopsis thaliana with 18 samples.

Results

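The 3 WOX5:GFP libraries hold RNA of GFP-positive cells sorted from roots of 5-day-old Arabidopsis thaliana seedlings that carried the reporter in a tcx2 mutant background. They are 3 of 18 samples and 3 of 12 sorted libraries, and were chosen by their labels alone. The other sorted populations came from the same background with CYCD6:GFP, FEZ:FEZ-GFP or TMO5:3xGFP, with 3 libraries each, and the remaining samples were whole root tips of WT (Col-0) and tcx2 (tcx2-3 per the study) seedlings, which the deposited table gives as 1 value per genotype. WOX5:GFP was chosen by the study to mark the quiescent center (QC), CYCD6:GFP the cortex endodermis initials, FEZ:FEZ-GFP the initials that form epidermis and lateral root cap, and TMO5:3xGFP the xylem initials. TCX2 (AT4G14770) encodes a CXC-domain DNA-binding protein related to a subunit of the DREAM cell cycle complex of animals. The study crossed the reporters into a knockdown allele, tcx2-2, or a knockout allele, tcx2-3, and does not say which population carried which, so allele and population cannot be told apart. Every sorted library is mutant, so no value below measures the effect of TCX2. The study also describes reporter signal outside the usual cells in this mutant, so a reporter name is not proof of a cell type here. In sorted bulk RNA, fewer cells of a type and less RNA per cell cannot be told apart.

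The QC is a small group of cells at the root tip that seldom divide and that keep the surrounding initials, the stem cells of each tissue, undifferentiated. WOX5 is a homeodomain transcription factor made in the QC, and PLETHORA (PLT) proteins, auxin and RGF peptides set up the niche around it. Differentiated cells around it have their own marks, such as lignin in xylem vessels and in the Casparian strip of the endodermis, and starch in the central root cap.

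The comparison asked which genes set WOX5:GFP cells apart from the other 3 sorted populations. Levels are FPKM, fragment numbers corrected for transcript length and for all mapped fragments. Differences are means of log2(FPKM + 1) in WOX5:GFP minus the mean of the other 3 population means, a scale that understates the change of low genes, and a gene was called when limma's Benjamini-Hochberg adjusted p was under 0.05 and the fold over 2. Of 33560 listed genes, 9979 reached an FPKM of 1 in at least 3 libraries and were tested. In WOX5:GFP, 35 genes were enriched (0.351% of tested genes) and 45 were lower (0.451%), 0.802% in either direction, while at an unadjusted p under 0.05 and the same fold these counts were 288 and 301. The median difference of all tested genes was -0.01. Depth is unknown, and an exact 0 may be a failed estimate, so a gene is said to be listed at 0.

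FPKM sums of the WOX5:GFP libraries ran from 565770 to 726969 and those of the others from 551518 to 862385, with ribosomal RNA genes at 78.6% to 81.3% and 78.1% to 85.9% of the sum. Genes above 0 numbered 15831 to 16638 in WOX5:GFP and 14878 to 22170 elsewhere. Across tested genes, which are not independent replicates, the mean Pearson correlation of WOX5:GFP libraries was 0.819 with each other, 0.798 with CYCD6:GFP, 0.756 with FEZ:FEZ-GFP and 0.679 with TMO5:3xGFP libraries.

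The label was first checked against WOX5 itself (AT3G11260, chromosome 3, 3527280 to 3528440). WOX5 was listed at 0 in each WOX5:GFP library, in all CYCD6:GFP and FEZ:FEZ-GFP libraries and in 1 of the TMO5:3xGFP libraries, whose other values were 1.49 and 0.997 FPKM. The marker therefore goes against the label or lies below what these libraries detect, and the cells are called WOX5:GFP cells here rather than QC cells. TMO5 (AT3G25710), a bHLH factor of young xylem, was at 3.75, 0.391 and 0.782 FPKM in WOX5:GFP, and no higher than 0.454 in any library of the other populations, TMO5:3xGFP included. Only 1 of the 9 others overlapped the WOX5:GFP values. Its difference of 1.07 had an exact permutation p of 0.00909 over 220 choices of 3 libraries, where the smallest possible is 0.00455. Adjusted over the 5 genes tested in this population p was 0.0455, and adjusted over these genes in all 4 populations, 20 tests, it was 0.182. Without WOX5:GFP replicate 1, which holds the highest value, the difference was 0.54, and no p is given because with 2 WOX5:GFP libraries (55 choices) the smallest adjusted exact p that 1 gene alone could reach is 0.0909. FEZ had values of 0.026, 0 and 0 FPKM in WOX5:GFP (exact permutation p 0.15), CYCD6;1 was listed at 0 in all 3 (exact p 0.632), and TCX2 was at 0.594, 0.677 and 0 (exact p 0.473). In whole root tips TCX2 was at 1.29 FPKM in WT and 0.303 in tcx2.

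Of 25 genes of the niche, 7 passed the filter and none was called, beside 0.802% of all tested genes. All 7 differences were negative with a median of -0.88, but the medians against single populations were 0.13 for CYCD6:GFP, -0.80 for FEZ:FEZ-GFP and -1.97 for TMO5:3xGFP, so the sign came from the latter populations. PLT3 (AT5G10510), a root meristem regulator, had FPKM values of 2.55, 0.305 and 2.12 in WOX5:GFP, 0.621, 2.81 and 0.717 in CYCD6:GFP, 4.63, 6.69 and 7.58 in FEZ:FEZ-GFP and 22.8, 41.7 and 11.7 in TMO5:3xGFP, with a difference of -1.56 (SE 0.43, limma adjusted p 0.102). Its levels were high in TMO5:3xGFP, intermediate in FEZ:FEZ-GFP and low in both other populations. PLT1 was at 0.22, 0 and 0.0634 FPKM in WOX5:GFP against 0 to 12.5 (median 2.62) elsewhere, with a difference of -1.52 (SE 0.39, limma adjusted p 0.0723). PLT2 was at 0, 0.49 and 0 against 0 to 8.55 (median 2.5), and BBM, a further PLT family member, at 1.36, 0 and 0 against 0 to 9.87 (median 1.67). These genes had values of or near 0 in CYCD6:GFP too. The RGF receptors RGI1 and RGI2 were at 0.581, 0.488 and 0.658 FPKM and 0.492, 0.342 and 0.502 FPKM, with differences of -0.34 and -0.69, and SPT, a bHLH gene, was at 0.178, 0.389 and 0.529 with -0.37 (limma adjusted p 0.727, 0.42 and 0.673).

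The other 18 niche genes did not pass the filter and have values only. SHR (AT4G37650), a GRAS factor that is made in the stele and moves into the neighboring layer, was at 3.5, 0.848 and 1.14 FPKM in WOX5:GFP and at 0 to 0.76 (median 0.0755) elsewhere, so that all 3 WOX5:GFP values lay above the others. Its partner SCR was at 0.0708, 0 and 0.106, and their targets JKD and MGP at 0.515, 0.542 and 0.176 and at 0.381, 0 and 0.112. In the same libraries, TPST, which sulfates RGF peptides, was at 0.285, 0 and 0.622 FPKM. The zinc finger genes WIP2 and WIP4 were at 0.566, 0 and 0.0498 and at 0.109, 0.139 and 0.228, and the receptor kinase gene ACR4 at 0.0482, 0.104 and 0.267. TEL1 was at 0.138, 0.324 and 0, BRAVO at 0.164, 0 and 0, ERF115 at 0, 0 and 0.339 and TCP20 at 0.456, 0 and 0. AGL42, WIP5, PLT7, RGF1 and CLE40, like WOX5, were listed at 0 in all 3, and CLE40 in all 12 libraries. Apart from SHR, these genes had WOX5:GFP values within the range of the other libraries or below it, and a level under 1 FPKM leaves little room to see a difference.

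Of the 35 enriched genes, 9 (0.0902% of tested genes) were called higher in WOX5:GFP than in each of the other 3 populations, and at an unadjusted p under 0.05 the count was 54. AT5G26290 (chromosome 5, 9226079 to 9228026 of the TAIR10.1 assembly), annotated as a TRAF-like protein, had the largest difference. Its FPKM was 17.3, 34 and 81.9 in WOX5:GFP, 1.09, 1 and 2.06 in CYCD6:GFP, 5.34, 1.2 and 0 in FEZ:FEZ-GFP and 1.03, 1.94 and 0 in TMO5:3xGFP, a difference of 4.11 (SE 0.51, limma adjusted p 0.000275). DIR6 (AT4G23690, chromosome 4, 12338829 to 12339967) encodes a dirigent protein, which steers the coupling of monolignol radicals into a lignan. Its FPKM was 6.51, 10.04 and 16.6 in WOX5:GFP, 0, 0 and 0.267 in CYCD6:GFP, 0, 0 and 1.93 in FEZ:FEZ-GFP and 0.241, 0 and 0 in TMO5:3xGFP. DIR6 was 0 or near 0 in 8 of the 9 other libraries, and its difference was 3.26 (SE 0.36, limma adjusted p 0.000134). Of the 9, it was the one gene that stayed called against each other population in all 12 fits that left out 1 library, while AT5G26290 did so in 11 and AT3G59370 in 8. The filter was applied anew in each fit. LTPG1, XTH21, XIF, AT2G41130 and AT1G28400, under 1 FPKM in every other population, therefore went untested whenever a WOX5:GFP library was left out. For those genes such fits say nothing of stability.

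LTPG1 (AT1G27950, chromosome 1, 9740508 to 9742159), a membrane-anchored lipid transfer protein of wax export, was at 2.92, 6 and 4.51 FPKM in WOX5:GFP and at 0 to 0.752 (median 0) elsewhere, a difference of 2.19 (SE 0.31, limma adjusted p 0.00108). XTH21 (AT2G18800, chromosome 2, 8144881 to 8146477), an enzyme that cuts and rejoins xyloglucan in the wall, was at 2.56, 2.39 and 6.26 FPKM and listed at 0 in 8 of the 9 others. The myosin gene XIF (AT2G31900, chromosome 2, 13560370 to 13570469) was at 2.11, 2.22 and 6.28 FPKM against 0 to 0.211 (median 0), the bHLH gene AT2G41130 at 5.72, 2.27 and 2.82 against 0 to 0.481 (median 0), and AT1G28400, annotated as a GATA zinc finger protein, at 5.01, 2.38 and 3.21 against 0 to 0.334 (median 0). The differences of these 5 genes were 2.19, 2.13, 2.00, 1.93 and 1.98 (limma adjusted p 0.00108, 0.000871, 0.00152, 0.00293 and 0.00144). In these 5 genes 0 of the other libraries reached 1 FPKM, so they passed the filter only because all 3 WOX5:GFP libraries did. The filter thus fixed that every WOX5:GFP value lay above every other value. Neither this separation nor the adjusted p of these genes is independent support for a difference. In 15 of the 35 enriched genes fewer than 3 of the other libraries reached 1 FPKM. Such genes entered the test only where WOX5:GFP was high, and their number is no support for a difference. XIF overlaps 3 annotated genes on the other strand, and LTPG1, XCP1, IAA5, PGIP1, AT2G33220 and STO overlap 1 each, and whether counting used strand is not given in the sources used here. AT1G27580 and SADHU2-1 overlap a gene on their own strand, which counting by strand would not separate. An F-box gene of the DUF295 group, AT1G27540, had 6.75, 8.43 and 13.4 FPKM against 0.243 to 2.2 (median 1.56), a difference of 2.11 (SE 0.36, limma adjusted p 0.00486). It was called enriched in 11 of the 12 fits that left out 1 library, but higher than each other population in 0 of them.

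**Figure D1:**
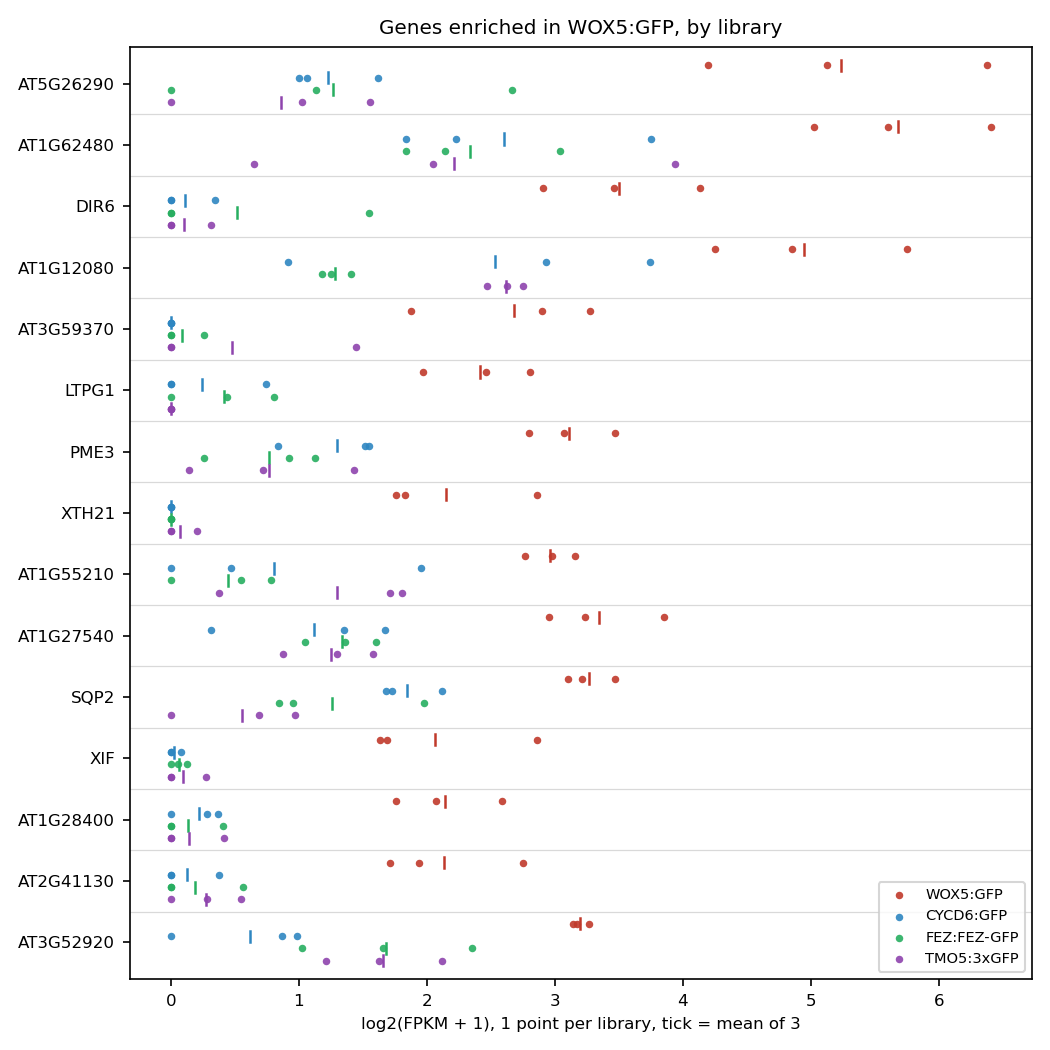
Level of the 15 named enriched genes in each of the 12 sorted libraries, as log2(FPKM + 1) on the horizontal axis, with 1 point per library, 1 color per population and a tick at each mean of 3. In each gene the 3 WOX5:GFP points lie to the right of the 9 others, which the choice of these genes required. DIR6, XTH21, XIF and AT3G59370 sit at or near 0 in most other libraries.

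Several enriched genes share an annotated family, a grouping made after their values were seen. All 3 genes annotated as vacuolar calcium-binding protein-like were enriched, against 0.351% of all tested genes, a count that choosing the family afterwards favors. AT1G62480 (chromosome 1, 23128651 to 23129759) was at 47.5, 31.6 and 83.9 FPKM in WOX5:GFP, 12.5, 2.58 and 3.68 in CYCD6:GFP, 7.2, 2.56 and 3.42 in FEZ:FEZ-GFP and 14.3, 3.14 and 0.57 in TMO5:3xGFP, a difference of 3.29 (SE 0.56, limma adjusted p 0.00484). AT1G12080 (chromosome 1, 4084162 to 4085185) was at 18, 27.8 and 52.9, 0.881, 12.4 and 6.64, 1.27, 1.37 and 1.66 and 4.55, 5.16 and 5.74 in the same order, a difference of 2.81 (SE 0.48, limma adjusted p 0.00484). AT3G59370 (chromosome 3, 21941765 to 21942571) was the lowest of the 3, at 2.67, 6.46 and 8.7 FPKM against 0 to 1.72 (median 0), a difference of 2.50 (SE 0.36, limma adjusted p 0.00116). The WOX5:GFP values lay above all others in each, and WOX5:GFP replicate 3 was the highest in each. Only AT3G59370 was called higher than each other population. AT1G62480 and AT1G12080 were not called higher than CYCD6:GFP (limma adjusted p 0.117 and 0.201). How reads that match more than 1 of these genes were assigned is not known. In whole root tips these genes had 850.2, 261 and 76.2 FPKM in WT and 1016, 278 and 71.8 in tcx2.

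The 250 bases before the annotated starts of AT1G12080 and AT3G59370 are shown because both genes were enriched and their promoters share sequence. They come from the RefSeq TAIR10.1 assembly, chr1:4083912-4084161 on the plus strand and chr3:21942572-21942821 on the minus strand, and are written 5′ to 3′. Capitals mark runs of at least 12 bases that occur in both, 63 bases in 4 runs in the same order. The longest exact run of the pair was 18 bases. Among 3003 pairs of promoters of 78 called genes the median longest run was 9 bases, and the only longer one, 22 bases between HRS1 and DIR6, holds only T and A. The longest run of AT1G62480 was 12 bases with AT1G12080 and 8 with AT3G59370.
AT1G12080: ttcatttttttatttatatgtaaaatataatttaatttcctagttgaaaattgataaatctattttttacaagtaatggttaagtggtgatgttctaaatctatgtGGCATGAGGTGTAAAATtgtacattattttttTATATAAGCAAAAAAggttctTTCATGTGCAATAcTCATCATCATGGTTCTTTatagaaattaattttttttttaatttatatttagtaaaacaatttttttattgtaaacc
AT3G59370: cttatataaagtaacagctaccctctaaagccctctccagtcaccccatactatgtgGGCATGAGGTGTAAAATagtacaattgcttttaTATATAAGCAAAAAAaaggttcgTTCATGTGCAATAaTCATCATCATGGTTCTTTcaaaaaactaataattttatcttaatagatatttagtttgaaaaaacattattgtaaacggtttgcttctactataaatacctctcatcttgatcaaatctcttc

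Members of 3 more families were enriched in part. Of 26 annotated dirigent-like genes 5 were tested, and 2 were enriched, DIR6 and AT1G55210, again beside 0.351% of all tested genes and in families picked for their calls. AT1G55210 was at 6.86, 5.79 and 7.91 FPKM against 0 to 2.87 (median 0.463), a difference of 2.12 (SE 0.41, limma adjusted p 0.0127). It was called higher than FEZ:FEZ-GFP only (limma adjusted p 0.156 for CYCD6:GFP and 0.0542 for TMO5:3xGFP). Its enriched call held in 0 of the 3 fits that left out a WOX5:GFP library. Both tested DUF295 genes, AT1G27540 and AT1G27580, were enriched, the latter at 1.47, 2.49 and 4.93 FPKM with a difference of 1.45 (SE 0.32, limma adjusted p 0.0336). AT1G27580 was not called against any single population (limma adjusted p 0.213 for CYCD6:GFP, 0.101 for FEZ:FEZ-GFP and 0.07 for TMO5:3xGFP). Of 3 tested DUF662 genes 2 were enriched, AT3G52920 at 8.61, 7.81 and 8.03 FPKM against 0 to 4.12 (median 1.32) with 1.88 (SE 0.37, limma adjusted p 0.0141), and AT2G36410 at 22.5, 17.1 and 22.1 with 1.70 (SE 0.36, limma adjusted p 0.0265). AT2G36410 was called higher than TMO5:3xGFP only (limma adjusted p 0.794 for CYCD6:GFP and 0.162 for FEZ:FEZ-GFP).

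PME3 (AT3G14310, chromosome 3, 4771833 to 4775258), a pectin methylesterase, was at 5.95, 7.4 and 10.1 FPKM against 0.101 to 1.92 (median 0.896), a difference of 2.17 (SE 0.35, limma adjusted p 0.0036). SQP2 (AT5G24140, chromosome 5, 8164319 to 8167776), annotated as a squalene monooxygenase of the sterol pathway, was at 8.28, 7.59 and 10.1 against 0 to 3.34 (median 0.959), a difference of 2.04 (SE 0.35, limma adjusted p 0.00486). Neither was called against CYCD6:GFP (limma adjusted p 0.201 and 0.453). The aquaporin gene PIP1C was at 56.2, 51.1 and 101 FPKM, 24, 24.9 and 21 in CYCD6:GFP, 30.2, 37.3 and 12.4 in FEZ:FEZ-GFP and 10.6, 6.6 and 11.6 in TMO5:3xGFP, the highest level of an enriched gene, with a difference of 1.86 (SE 0.42, limma adjusted p 0.034). XCP1 (AT4G35350, chromosome 4, 16810482 to 16812077), a peptidase that clears the contents of xylem vessels, was at 0.755, 3 and 8.42 FPKM and listed at 0 in 7 of the 9 others. Its WOX5:GFP values overlapped those of FEZ:FEZ-GFP, and its difference was 1.80 (SE 0.40, limma adjusted p 0.0328). XCP1 was called higher than TMO5:3xGFP alone (limma adjusted p 0.0182), not than CYCD6:GFP (0.201) or FEZ:FEZ-GFP (0.268). Its enriched call held in only 6 of the 12 fits that left out 1 library, and in some of the others it failed the filter. IAA5 (AT1G15580, chromosome 1, 5365512 to 5366497), an Aux/IAA repressor of auxin response, was at 3.64, 3.75 and 4.94 FPKM against 0 to 2.57 (median 0.726), a difference of 1.52 (SE 0.33, limma adjusted p 0.0274). PIP1C was chosen after its values were seen, as were AT1G27580 and AT2G36410. The other enriched genes had mean levels of 2.36 to 21.6 FPKM in WOX5:GFP and differences of 1.37 to 1.84, among them the transporter gene ABCB15, the kinase gene CIPK9, the arabinogalactan protein gene FLA8 and PGIP1, an inhibitor of fungal pectin-degrading enzymes.

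For enriched genes the differences from the single populations were alike in size. Their median difference was 1.81 from CYCD6:GFP, 1.77 from FEZ:FEZ-GFP and 2.08 from TMO5:3xGFP, and all 35 were positive in each comparison, which the choice of the genes favors. Calls were less even, with 12 of the 35 called higher than CYCD6:GFP, 17 than FEZ:FEZ-GFP and 31 than TMO5:3xGFP. Over all tested genes these comparisons called 0.120%, 0.190% and 1.73% higher and 0.0301%, 0.641% and 3.95% lower. They share the 3 WOX5:GFP libraries, as does the main contrast. All 3 WOX5:GFP values lay above the 9 others in 31 of the 35 genes, and in 1.41% of all tested genes. The calls favor this separation, and in the 7 genes that passed the filter through WOX5:GFP libraries alone the filter fixed it.

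**Figure D2:**
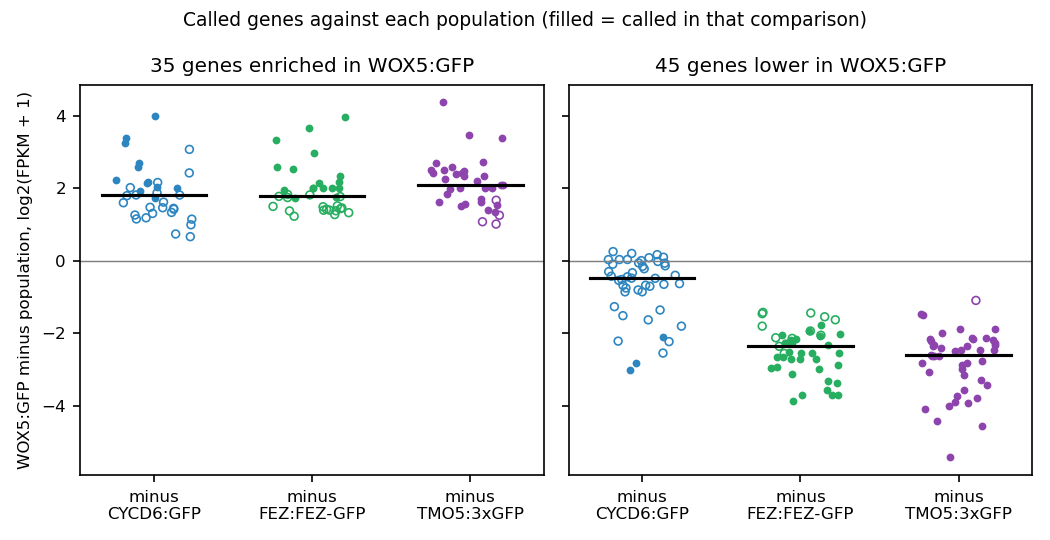
Difference of WOX5:GFP from each other population on the log2(FPKM + 1) scale (vertical axis) for the 35 enriched and 45 lower genes, with 1 point per gene, filled where the gene was called in that comparison, and a bar at the median. Lower genes lie near 0 against CYCD6:GFP (median -0.49) and well below 0 against FEZ:FEZ-GFP (-2.37) and TMO5:3xGFP (-2.60).

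Lower genes showed another pattern. Most were low in CYCD6:GFP as in WOX5:GFP cells, and high in FEZ:FEZ-GFP and TMO5:3xGFP. Of the 45, 31 were called lower than both FEZ:FEZ-GFP and TMO5:3xGFP but not lower than CYCD6:GFP, 11 lower than TMO5:3xGFP alone, and 3 lower than CYCD6:GFP. For 23 of the 45 the difference from CYCD6:GFP was under 0.5 in size. Over the 45 genes the median of the mean log2(FPKM + 1) was 0.31 in WOX5:GFP, 0.92 in CYCD6:GFP, 2.81 in FEZ:FEZ-GFP and 3.08 in TMO5:3xGFP. All 3 WOX5:GFP values lay below the 9 others in 15 genes, against 0.621% of all tested genes, a separation that the calls favor. For 9 of the 45 each WOX5:GFP value was 0. In 29 of the 45 no WOX5:GFP library reached 1 FPKM, so these entered the test through the other populations.

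AT2G31141 (chromosome 2, 13271726 to 13272534), an uncharacterized gene, was the only one (0.0100% of tested genes) called lower than each other population, where an unadjusted p under 0.05 gave 27. Its FPKM was 0, 0 and 1.06 in WOX5:GFP, 12.9, 12 and 5.15 in CYCD6:GFP, 13.1, 12.1 and 11.3 in FEZ:FEZ-GFP and 20.8, 24 and 11.8 in TMO5:3xGFP, a difference of -3.43 (SE 0.40, limma adjusted p 0.000134). In root tips it had 0.135 FPKM in WT and 0.567 in tcx2. It overlaps AT2G31140 and AT2G31150 on the other strand. Called lower than CYCD6:GFP as well were AT2G33220 (chromosome 2, 14078850 to 14080743), a GRIM-19 protein of the mitochondrial respiratory chain, at 0, 1.27 and 1.7 FPKM against 4.25 to 19.4 (median 6.46), and AT5G49440 (chromosome 5, 20048239 to 20049776), listed at 0 in all 3 against 0.397 to 3.87 (median 3.11). Their differences were -2.26 (SE 0.42, limma adjusted p 0.00954) and -1.77 (SE 0.32, limma adjusted p 0.00719). AT3G46430, annotated as an ATP synthase, was at 0.521, 2.2 and 2.28 against 4.28 to 21.3 (median 8.46), and the chloroplast gene ATCG00870 was listed at 0 in all 3 against 1.46 to 32.6 (median 5.05). Both were below every other library, with differences of -2.09 (SE 0.44, limma adjusted p 0.0274) and -2.84 (SE 0.61, limma adjusted p 0.0274).

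**Figure D3:**
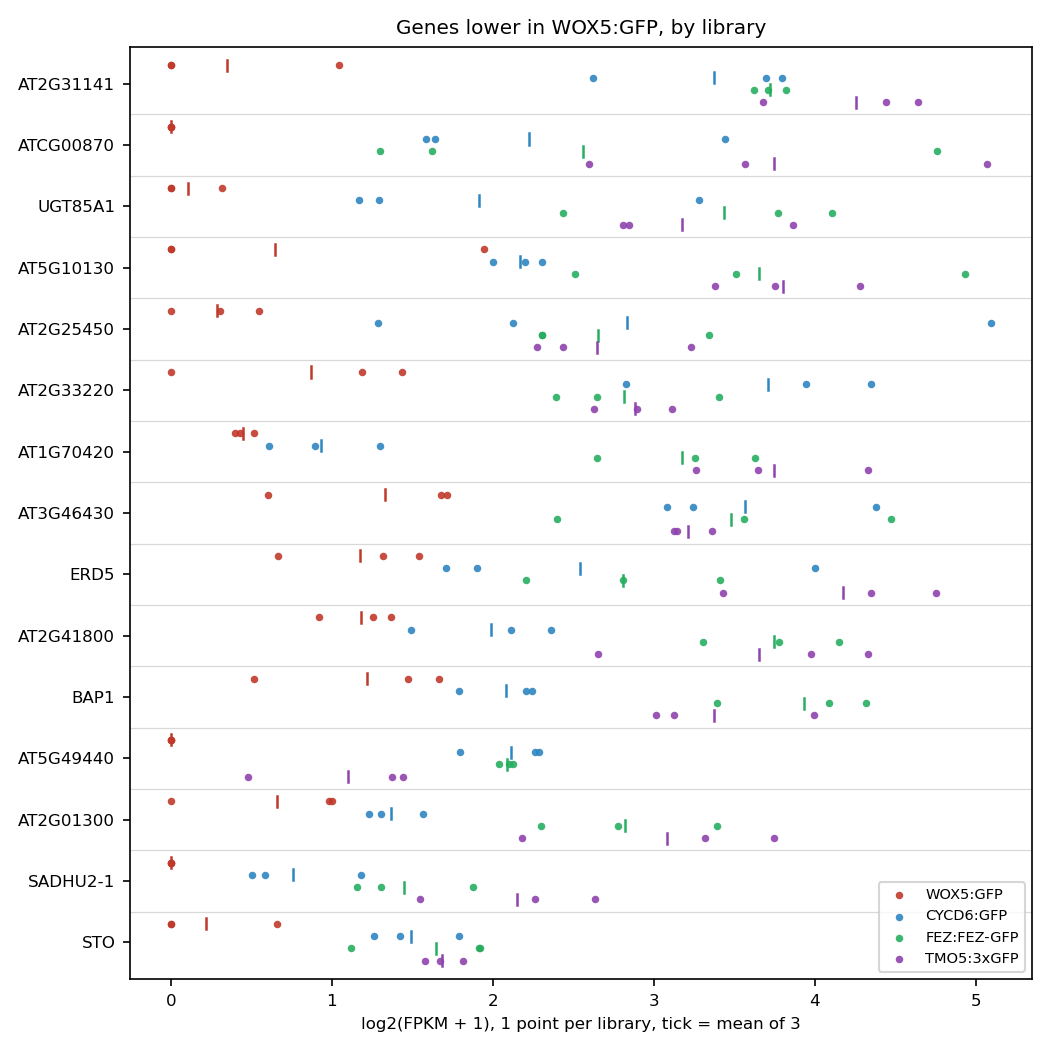
Level of the 15 named lower genes in each of the 12 sorted libraries, as log2(FPKM + 1) on the horizontal axis, with 1 point per library, 1 color per population and a tick at each mean of 3. The 3 WOX5:GFP points lie to the left of the 9 others in each gene, which the choice of these genes required. For AT1G70420, BAP1, AT2G41800 and AT2G01300 the CYCD6:GFP points are the nearest to them.

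UGT85A1 (AT1G22400, chromosome 1, 7903660 to 7906969), which glucosylates cytokinin, was at 0, 0.247 and 0 FPKM in WOX5:GFP, 1.25, 1.45 and 8.72 in CYCD6:GFP, 16.3, 12.6 and 4.41 in FEZ:FEZ-GFP and 6.02, 13.6 and 6.19 in TMO5:3xGFP, a difference of -2.74 (SE 0.46, limma adjusted p 0.00439). ERD5 (AT3G30775, chromosome 3, 12448636 to 12451556), a proline dehydrogenase, was at 1.49, 0.583 and 1.92 against 2.27 to 26 (median 9.64), a difference of -2.00 (SE 0.47, limma adjusted p 0.0478). BAP1, a membrane-bound repressor of cell death, was at 2.18, 0.431 and 1.77 against 2.46 to 18.9 (median 7.72), a difference of -1.91 (SE 0.39, limma adjusted p 0.0189). The B-box gene STO, known from light signaling, was at 0.581, 0 and 0 against 1.17 to 2.78 (median 2.18), a difference of -1.39 (SE 0.32, limma adjusted p 0.0386). The calls of ERD5 and STO held in only 5 and 3 of the 12 fits that left out 1 library. AT1G70420 (DUF1645) was at 0.345, 0.43 and 0.315 in WOX5:GFP, 0.526, 1.46 and 0.861 in CYCD6:GFP, 8.53, 5.27 and 11.3 in FEZ:FEZ-GFP and 8.58, 19.1 and 11.5 in TMO5:3xGFP, and so sat low in the first and the second of these populations. Its difference was -2.17 (SE 0.36, limma adjusted p 0.0036), and those of AT5G10130, AT2G25450, AT2G01300 and SADHU2-1 were -2.56, -2.43, -1.76 and -1.45 (limma adjusted p 0.0106, 0.0353, 0.0334 and 0.0336).

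One gene of the root cap was among those low in both WOX5:GFP and CYCD6:GFP. SMB (AT1G79580, chromosome 1, 29940803 to 29943713), a NAC factor that drives maturation of the root cap, was at 0, 0 and 0.216 FPKM in WOX5:GFP, 0, 0 and 0 in CYCD6:GFP, 7.24, 4.24 and 1.91 in FEZ:FEZ-GFP and 3.19, 4.98 and 3.19 in TMO5:3xGFP, a difference of -1.43 (SE 0.33, limma adjusted p 0.0428). Its call held in only 3 of the 12 fits that left out 1 library. Of 7 root cap genes 2 passed the filter and 1, SMB, was called lower, beside 0.451% of all tested genes. The other, BRN1, was at 0 in every WOX5:GFP library, reached 1.42 FPKM in CYCD6:GFP replicate 1, and was not called, with a difference of -1.22 (SE 0.39, limma adjusted p 0.159). The summed FPKM of the 7 was 0.313 to 1.45 in WOX5:GFP, 0.550 to 1.87 in CYCD6:GFP, 2.87 to 11.3 in FEZ:FEZ-GFP and 6.72 to 28.6 in TMO5:3xGFP, and the part that cap cells may have in the other lower genes was not tested. IAA33 (AT5G57420, chromosome 5, 23269914 to 23271092), an Aux/IAA protein without the domain through which auxin triggers degradation, was listed at 0 in all 6 WOX5:GFP and CYCD6:GFP libraries. Its FPKM was 7.29, 1.75 and 1.97 in FEZ:FEZ-GFP and 6.08, 6.77 and 6.49 in TMO5:3xGFP, a difference of -1.64 (SE 0.34, limma adjusted p 0.0231). Chosen after their values were seen, SEX1 and ISA3, enzymes of starch breakdown, were at 0.502, 0.262 and 0.389 and at 0, 0.193 and 0.327 FPKM in WOX5:GFP and between 3.5 and 11.1 and 2.24 and 8.69 in FEZ:FEZ-GFP and TMO5:3xGFP. Both were called, with differences of -1.47 (SE 0.34, limma adjusted p 0.0371) and -1.51 (SE 0.34, limma adjusted p 0.0336), and their calls held in 4 and 6 of the 12 fits. RGF3, a peptide gene of the root meristem, was at 0, 0.535 and 0 FPKM in WOX5:GFP, 0, 0.447 and 0 in CYCD6:GFP, 13, 5.41 and 0.435 in FEZ:FEZ-GFP and 59.7, 84.4 and 22.7 in TMO5:3xGFP, a difference of -2.51 (SE 0.52, limma adjusted p 0.0224), and was likewise picked out afterwards.

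AT2G41810 and AT2G41800, which share the annotation DUF642 and lie 1094 bases apart on chromosome 2, were enriched and lower. AT2G41810 was at 13.5, 14.2 and 4.48 FPKM in WOX5:GFP, 2.97, 4.45 and 2.51 in CYCD6:GFP, 4.54, 2.42 and 3.99 in FEZ:FEZ-GFP and 1.76, 1.04 and 0.23 in TMO5:3xGFP, a difference of 1.68 (SE 0.39, limma adjusted p 0.0446). AT2G41800 was at 0.889, 1.58 and 1.39, 3.33, 4.14 and 1.82, 12.7, 8.87 and 16.8 and 14.7, 19.1 and 5.3 in the same order, a difference of -1.95 (SE 0.40, limma adjusted p 0.0219). The former was therefore lowest and the latter high in TMO5:3xGFP. AT2G41810 was picked out after its values were seen. Its lowest WOX5:GFP value lay under the highest of FEZ:FEZ-GFP, and its call held in only 3 of the 12 fits that left out 1 library, that of AT2G41800 in 9.

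Lists of genes with a known role were described by their counts and medians, beside -0.01 for all tested genes. Of all 9979 tested genes 4918 had positive differences, and 0.802% were called in either direction. The counts of each list stand beside these shares. The monolignol pathway, which makes the building blocks of lignin, had the highest median of the 19 lists. Of its 13 genes 12 passed the filter, all 12 had positive differences with a median of 1.19, and 7 exceeded 1. None was called, against 0.351% of all tested genes enriched, with limma adjusted p from 0.060 to 0.957. CCOAOMT1, a methyltransferase of the pathway, was at 24, 26.3 and 77.2 FPKM in WOX5:GFP, 11.1, 6.91 and 10.4 in CYCD6:GFP, 9.43, 9.43 and 3.98 in FEZ:FEZ-GFP and 26.8, 4.87 and 4.38 in TMO5:3xGFP, a difference of 2.02 (SE 0.51, limma adjusted p 0.0676). PAL1 and PAL2, the entry enzymes, were at 10.7, 13.8 and 23.5 and at 4.12, 4.6 and 7.51 FPKM against 0.0612 to 9.96 (median 2.83) and 0.178 to 2.29 (median 1.46), with differences of 2.01 (SE 0.51, limma adjusted p 0.0698) and 1.52 (SE 0.37, limma adjusted p 0.06). C4H, the next step, was at 11.8, 17.9 and 24.7 against 5.18 to 12.3 (median 6.08), and CAD4, the last, at 12.3, 14.3 and 22 against 1.79 to 12 (median 5.52). TMO5:3xGFP replicate 1 was above the other libraries of its population in PAL1, CCOAOMT1 and CAD4. WOX5:GFP replicate 3 held the highest of the 3 WOX5:GFP values in 10 of the 12 genes, and its median over all tested genes was also the highest of the 3. The summed FPKM of the 13 was 82.1 to 191 in WOX5:GFP, 30.4 to 58.5 in CYCD6:GFP, 25.6 to 34.6 in FEZ:FEZ-GFP and 23.8 to 67.3 in TMO5:3xGFP, so that WOX5:GFP lay above the other populations, whose ranges overlapped each other.

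**Figure D4:**
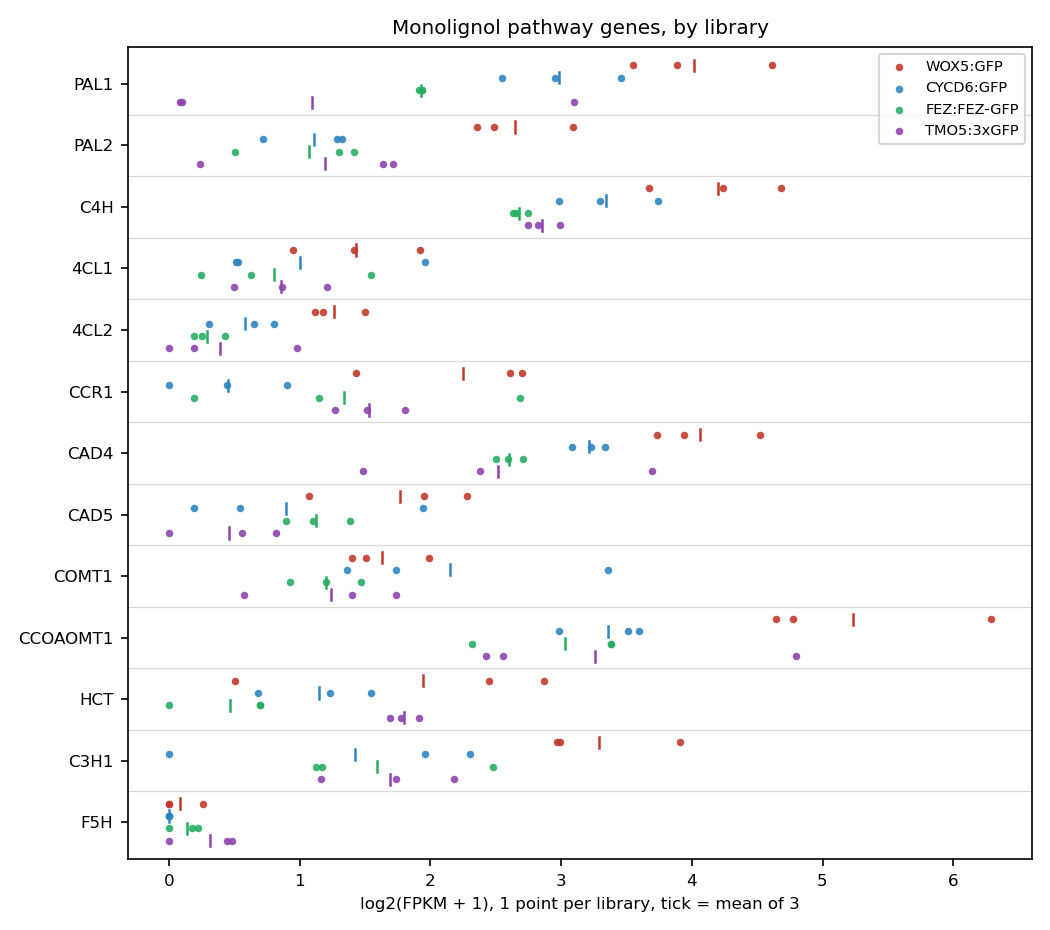
Level of the 13 monolignol pathway genes in each of the 12 sorted libraries, as log2(FPKM + 1) on the horizontal axis, with 1 point per library, 1 color per population and a tick at each mean of 3. The WOX5:GFP mean is the highest of the 4 in 11 of the 13 genes, the exceptions being COMT1 and F5H, and the 3 WOX5:GFP points are clear of the 9 others in 5.

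Among Aux/IAA genes, 15 of 22 passed the filter, 11 were positive, and the median was 0.59. IAA5 was enriched and IAA33 lower, beside 0.802% of all tested genes called in either direction. IAA16 was at 26.8, 42.3 and 30.9 FPKM against 1.74 to 15.9 (median 13.8) and IAA2 at 41.5, 70.3 and 77.3 against 13.2 to 37.9 (median 33.5), with differences of 1.76 (SE 0.47, limma adjusted p 0.0877) and 1.09 (SE 0.43, limma adjusted p 0.295), and in both every WOX5:GFP value was above the others. Of 10 type-A ARR genes, which dampen cytokinin response, 5 passed, all positive, with a median of 0.40 and none called. Auxin transport (6 of 9 passed, median -0.34) and auxin synthesis genes (4 of 6, median -0.31) had none called. Of the 24 genes that the study predicted as TCX2 targets in the QC, 17 passed, 5 were positive, the median was -0.27 and none was called. The study also set its predictions beside these libraries, so the list is not independent evidence of direction. Of the CXC family, TSO1 and TCX7 passed, with differences of -0.23 and -0.42 (limma adjusted p 0.854 and 0.727).

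Cell cycle genes gave few tested members. Cyclins and CDKs (10 of 29 passed, 6 positive, median 0.02), replication genes (10 of 13, 3 positive, median -0.20) and inhibitors of CDKs (7 of 9, 1 positive, median -0.08) had 0 called, where 0.802% of all tested genes were called in either direction and so hardly a call is due in lists of this size. Their medians in this order were 0.35, 0.54 and -0.03 against CYCD6:GFP, -0.70, -0.34 and -0.28 against FEZ:FEZ-GFP, and -0.12, -0.99 and 0.01 against TMO5:3xGFP, so the sign for cyclins and replication genes differed between comparisons.

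Markers of other cells were read the same way. Of 22 xylem and stele genes 4 passed, 2 were positive and 2 negative, and the median was 0.28. Of these 1 was enriched (XCP1), beside 0.351% of all tested genes. WOL, a cytokinin receptor of the stele, had a difference of 0.94 (SE 0.33, limma adjusted p 0.222), while LHW, the bHLH partner of TMO5, had -0.39 (SE 0.30, limma adjusted p 0.653) and MP, an auxin response factor, -0.46 (SE 0.39, limma adjusted p 0.703). The 22 genes' summed FPKM was 11.2 to 28.9 in WOX5:GFP, 3.01 to 6.36 in CYCD6:GFP, 5.25 to 7.28 in FEZ:FEZ-GFP and 6.22 to 18.2 in TMO5:3xGFP, so that WOX5:GFP and TMO5:3xGFP overlapped. The 18 below the filter were not tested. Apart from TMO5, their WOX5:GFP values ran from 0 in all 3 libraries, for VND6, to 4.22 FPKM, for XCP2 in replicate 3. XCP2 was at 1.3 and 0 in replicates 1 and 2, and the remaining members reached at most 2.13 FPKM. These values are given for WOX5:GFP alone, so no difference from the other populations can be read from them. What part xylem cells have in the values of this list or of the monolignol genes was not tested. No gene of the phloem (9) or endodermis (9) lists passed the filter, and in the suberin list 1 of 13 did, with 9 of the 13 at 0 throughout WOX5:GFP. Epidermis and root hair genes (13 of 15 passed, median 0.02) and stress genes (12 of 12, median -0.12) had none called, beside 0.802% of all tested genes. The largest difference among stress genes was that of the kinase gene MPK3, at 0.375, 0.205 and 1 FPKM against 0.559 to 23.8 (median 4.28), -1.77 (SE 0.42, limma adjusted p 0.0508).

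In whole root tips, 33 of the 35 enriched genes and 40 of the 45 lower genes had at least 1 FPKM in WT. The median over enriched genes was 41.3 FPKM in WT and 44.0 in tcx2, and that over lower genes 6.52 and 8.12. In all 80 genes the interval given by the authors for tcx2 overlapped that for WT. For some this says little. In AT1G27580 and ATCG00870 all values and bounds were 0, and the WT value of FLA8, 130.7 FPKM, lay outside its own interval of 73.7 to 128.0. The overlap is therefore no measure of the effect of tcx2. These values come from 1 pooled value per genotype, made with another library kit, and have no replicate error.

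The promoters of called genes were searched for TTTGAA on both strands, the core of the CHR element that the CXC protein of the animal DREAM complex binds, and for TAATTA, a core that many homeodomain proteins bind. The letters TTTGAA occurred in the 250 bases before the start of 16 of the 35 enriched genes (45.7%), of 14 of 43 lower genes with a promoter (32.6%) and of 38.8% of 27443 protein-coding genes. The 9 genes higher than each other population are part of the 35, and 7 of them held it (77.8%). The enriched genes outside the 9 thus held it less often than the 9. The group of 9 is small and was empty with a pseudocount of 0.1. TAATTA occurred in 2 of the 9 (22.2%), in 31.4% of enriched, 44.2% of lower and 28.4% of protein-coding genes. A match is a description of letters, not a site. Shown are DIR6 and LTPG1, 2 of the 7 whose promoters hold TTTGAA, at chr4:12339968-12340217 on the minus strand and chr1:9740258-9740507 on the plus strand of TAIR10.1. Capitals mark each match in either orientation, and in DIR6 also a TAATTA.
DIR6: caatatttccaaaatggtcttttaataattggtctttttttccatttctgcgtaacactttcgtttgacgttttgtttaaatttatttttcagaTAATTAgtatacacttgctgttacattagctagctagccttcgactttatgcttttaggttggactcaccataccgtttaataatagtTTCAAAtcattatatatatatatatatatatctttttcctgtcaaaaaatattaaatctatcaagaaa
LTPG1: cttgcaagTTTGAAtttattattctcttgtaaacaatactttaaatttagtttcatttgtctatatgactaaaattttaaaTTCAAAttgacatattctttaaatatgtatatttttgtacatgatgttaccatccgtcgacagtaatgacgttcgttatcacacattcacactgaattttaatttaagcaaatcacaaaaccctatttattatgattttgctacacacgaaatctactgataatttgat

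The number of calls depended on each WOX5:GFP library. Without WOX5:GFP replicate 1, 2 or 3, enriched genes numbered 12, 9 and 6, of which 11, 8 and 5 were among the 35, and lower genes 7, 8 and 14. Leaving out 1 library of another population gave 23 to 44 enriched and 29 to 62 lower genes, with 23 and 29 without TMO5:3xGFP replicate 2. Part of the fall comes from the filter, which was applied anew in each fit. Of the 35, 7 had passed it through WOX5:GFP libraries alone and went untested without 1 of these. With the tested genes kept, enriched genes numbered 19, 16 and 13 without WOX5:GFP replicate 1, 2 or 3. Enriched genes tested and called in all 12 fits were AT5G26290, DIR6 and AT3G59370, and lower ones AT2G31141, AT4G38410, AT2G43535 and AT1G70420. WOX5:GFP replicate 3 held the highest WOX5:GFP value in 25 of the 35 enriched genes. That library was also higher over all tested genes, with a median log2(FPKM + 1) of 1.55 against 1.26 and 1.27 in replicates 1 and 2. Genes higher than each other population numbered 4, 2 and 1 without WOX5:GFP replicate 1, 2 or 3, 3 without CYCD6:GFP replicate 2 and 3 without CYCD6:GFP replicate 3. With the tested genes kept, these counts were 7, 7, 1, 3 and 6 in the same order. With a pseudocount of 0.1 in place of 1 no gene was called higher than each other population and 15 genes were enriched.

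**Figure D5:**
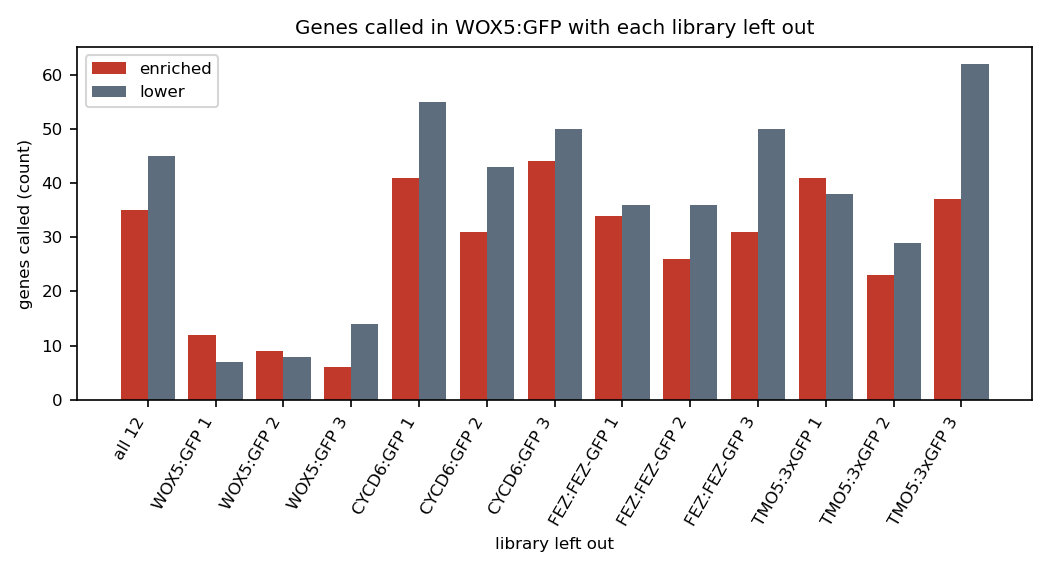
Number of genes called enriched and lower in WOX5:GFP (vertical axis) with all 12 libraries and with each library left out in turn. Bars fall to 6 to 12 enriched and 7 to 14 lower genes when a WOX5:GFP library is left out. The filter was applied anew in each fit, which removes some enriched genes from testing.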

How the data were processed

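The libraries were made from GFP-positive protoplasts and sequenced as single-end reads. Per the labels the kit was the Clontech SMARTer Stranded kit, whereas the study's methods for sorted marker lines name a SMART-Seq kit, so whether the libraries kept strand is not settled. The authors deposited 1 FPKM value per gene and library, and for whole root tips 1 FPKM value per genotype with an interval, from NEBNext libraries. The submitters' processing notes name TAIR10, Bowtie2 and Cufflinks, and the study names Bowtie, Tuxedo and Rsubread. Mapping settings and the use of strand are not given in the sources used here. The root tip table also holds the authors' own comparison, which was not used.

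Samples were grouped by label as 4 sorted populations of 3 biological replicates. FPKM values were taken as log2(FPKM + 1), genes with an FPKM of at least 1 in at least 3 of the 12 libraries were kept, and a linear model with 4 group means was fitted to all 9979 such genes with limma 3.58.1 (R 4.3.3, variance moderation with a trend), with Benjamini-Hochberg adjustment over all tested genes within each comparison. A call needed an adjusted p under 0.05 and a difference over 1. FPKM values keep no depth: among 5066 low genes of WOX5:GFP replicates 1 and 2 the commonest ratio between the libraries was held by 1.11%, so whole reads were not recovered and no counting interval is given. Reporter genes were tested with a two-sided exact permutation test over libraries. Scripts were tested on simulated data.

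Named genes were the 15 with the largest difference in each direction among called genes whose WOX5:GFP values did not overlap the others, and called members of 19 lists holding 255 genes. The members and lists were chosen with earlier results of these data known. Pseudocounts, filters, scalings, library weights, a replicate block and leaving out each library were tried as alternatives. Coordinates and the 250 bases before each start come from the RefSeq TAIR10.1 annotation and genome, and figures were drawn with matplotlib 3.10.9.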

Additional observations from a re-analysis of the deposited data

How the results depend on the processing

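Depth is unknown, and the groups hold 3 libraries. No named gene reversed its direction under any alternative, but most were chosen because their WOX5:GFP values did not overlap the others. For those, leaving out a library or changing the pseudocount or filter could not reverse the sign, so this is no support for them. With a pseudocount of 0.1 there were 15 enriched genes, 0 higher and 2 lower than each other population. A pseudocount of 5 gave 15 enriched and 17 lower genes, 4 higher and 0 lower than each, and 14 of the 34 named calls. Without a filter (28571 genes tested) 12 enriched and 5 lower genes, 0 and 0 against each, and 14 named calls were left. A stricter filter (2655 genes tested) gave 19 enriched genes, 1 higher than each and 20 named calls. Median centering gave 57 enriched and 69 lower genes and 2 lower than each, and no called reporter gene in place of 1. Quantile normalization gave 74 lower genes and 2 lower than each, and scaling to an equal nuclear sum 56 enriched genes and 2 lower than each. Library weights, from 0.288 to 5.65, gave 112 enriched and 119 lower genes, 21 higher and 6 lower than each. The fewer tests, or the fewer low genes, of the filters are part of their construction, and for the other settings the cause was not tested.

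Leaving out 1 library at a time gave 6 to 44 enriched genes, 7 to 62 lower genes, 1 to 9 genes higher and 0 to 2 lower than each other population, 8 to 33 named calls and 0 to 1 called reporter gene. Among fits that left out a library of another population, the call of TMO5 held only without FEZ:FEZ-GFP replicate 3. Without a WOX5:GFP library 1 gene alone could not reach an adjusted exact p under 0.0909, so those fits say nothing of its stability. With the tested genes kept as in the full set, an alternative chosen after seeing the data, the ranges were 13 to 44, 8 to 65, 1 to 9 and 0 to 2, with 19, 16 and 13 enriched and 8, 9 and 14 lower genes without WOX5:GFP replicate 1, 2 or 3, and 27 lower genes without TMO5:3xGFP replicate 2. AT2G31141 was not called lower than each without WOX5:GFP replicate 1, WOX5:GFP replicate 2 or CYCD6:GFP replicate 2. Replicate numbers did not pair the libraries, with correlations of deviations from -0.19 to 0.17 over 18 pairs (median 0.00). With a replicate block there were 32 enriched and 38 lower genes, 9 and 1 against each other population, and 30 named calls.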
